A study of Homo sapiens with 4 samples.

Results

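The genes described here are 42 genes of the amino acid response that the transcription factor ATF4 drives: ATF4 itself, its partner and downstream transcription factors, its stress effectors, amino acid transporters, enzymes of amino acid synthesis and mitochondrial one-carbon metabolism, and the machinery that charges and exports transfer RNA. They were chosen by name, as all probe sets annotated to 1 of these symbols and to no other gene. Of the 42, 40 had such probe sets, 85 in all, out of 19775 genes and 41097 probe sets with a single symbol on the arrays. GPT2 and MARS1 had none, the 3 probe sets of MARS1 being annotated to a microRNA gene as well. A gene was represented by its probe set with the highest mean, and 38 of the 40 reached the median log2 value of all probe sets, 6.08, as did 12468 of all genes. NUPR1 and ALDH1L2 were dimmer, with intensities between 25.5 and 34.5 and between 18.3 and 23.8. The 42 genes and the related lists below were chosen with earlier results of these data known. Their counts, set beside the shares of all genes, therefore describe the lists.

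RNA came from HCT116, an established line of human colorectal adenocarcinoma cells, and was measured on 1 array each for 4 groups. The groups were untransfected cells, cells with a non-targeting short hairpin RNA vector (shCTRL), and cells with hairpin #1 or hairpin #2 against KSR1, a scaffold of the RAF-MEK-ERK kinase cascade. Per the labels, all were grown in DMEM with serum, glutamine and non-essential amino acids, a supplement that holds serine, glycine, asparagine and proline. The 3 hairpin lines were transfected by lipofection and selected as clones with puromycin, which the untransfected cells were not, and the sources used here do not say how many clones an array represents. No group had a replicate array, so a difference between single arrays has no replicate check, and clone, hairpin, culture and array cannot be told apart.

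ATF4 is the effector of the integrated stress response. Kinases that sense uncharged transfer RNA, unfolded protein, heme shortage or viral RNA phosphorylate the initiation factor eIF2, which lowers protein synthesis in general while the ATF4 message is translated more. ATF4 then binds, often as a dimer with a C/EBP protein, to composite elements called CARE and raises the genes for amino acid uptake, serine and asparagine synthesis and transfer RNA charging. Because ATF4 is controlled largely in translation, its own messenger RNA is an incomplete readout of its activity.

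The CARE core was looked for in the promoters of these genes, since it is a feature of sequence and not a value of the arrays. RefSeq promoter windows of assembly GRCh38.p14, 250 bases before to 50 after each start, were searched for TGATGNAA on both strands. Windows were given for 33 of the 40 genes, ALDH1L2, EIF4EBP1, NUPR1, PSPH, PYCR1, SHMT2 and SLC7A11 not being matched. The motif lay in a window of 13 of the 33 genes, or 39.4%, and of 4.46% of all 27305 genes with a window. Per window the shares were 23.6% of 55 and 3.62% of 35116, several genes having more than 1 window. These genes were listed as ATF4 targets, partly from work on their promoters, so the share is a description of the list.

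The promoters of CHAC1 and ASNS hold the motif before the start and those of CTH and PSAT1 do not, and these genes gave 4 of the 5 largest positive differences described below. Each is printed as the 250 bases before its start on the strand of the gene, with the motif or its reverse complement in capitals. They lie at chr15:40953221-40953470 for CHAC1 (plus strand), chr7:97872409-97872658 for ASNS (minus strand), chr1:70411018-70411267 for CTH (plus strand) and chr9:78296875-78297124 for PSAT1 (plus strand).
CHAC1: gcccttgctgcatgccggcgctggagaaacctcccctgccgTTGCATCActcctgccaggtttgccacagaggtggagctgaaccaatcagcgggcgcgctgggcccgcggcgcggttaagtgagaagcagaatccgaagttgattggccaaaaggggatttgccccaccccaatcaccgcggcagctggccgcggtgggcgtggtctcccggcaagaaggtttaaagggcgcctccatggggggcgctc
ASNS: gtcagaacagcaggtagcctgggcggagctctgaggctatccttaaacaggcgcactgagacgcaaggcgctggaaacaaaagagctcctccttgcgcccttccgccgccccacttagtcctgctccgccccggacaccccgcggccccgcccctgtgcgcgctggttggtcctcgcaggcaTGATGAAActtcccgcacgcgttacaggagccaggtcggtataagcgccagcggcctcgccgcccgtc
CTH: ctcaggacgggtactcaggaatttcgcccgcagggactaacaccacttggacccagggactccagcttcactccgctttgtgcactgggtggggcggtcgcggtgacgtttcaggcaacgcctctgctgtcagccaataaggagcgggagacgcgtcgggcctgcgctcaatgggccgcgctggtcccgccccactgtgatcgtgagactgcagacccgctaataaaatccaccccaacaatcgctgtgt
PSAT1: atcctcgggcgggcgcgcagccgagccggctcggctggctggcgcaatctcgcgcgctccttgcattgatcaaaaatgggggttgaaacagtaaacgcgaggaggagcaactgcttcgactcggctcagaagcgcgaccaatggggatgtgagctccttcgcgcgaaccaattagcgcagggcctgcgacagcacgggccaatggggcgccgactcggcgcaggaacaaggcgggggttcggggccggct

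The motif began at position -209 in CHAC1, on the opposite strand, and at position -68 in ASNS, the first transcribed base being 1. The windows of CTH and PSAT1 held no stretch of these letters, which says nothing of elements elsewhere in those genes.

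The other matches are shown in stretches of at most 30 bases, to compare the element and its surroundings across transporters, synthetases and transcription factors. They lie at chr16:70289675-70289704 (AARS1, minus strand), chr11:3057407-3057436 (CARS1, minus), chr7:30594834-30594863 (GARS1, plus), chr18:57621804-57621833 (NARS1, minus), chr19:46784893-46784922 (SLC1A5, minus), chr11:62881725-62881748 (SLC3A2, plus), chr13:29595663-29595692 (SLC7A1, minus), chr19:33374060-33374089 (CEBPG, plus), chr2:64989381-64989410 (SLC1A4, plus), chr12:46266502-46266531 (SLC38A1, minus) and chr1:212565205-212565234 (ATF3, plus).
AARS1: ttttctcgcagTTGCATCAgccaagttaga
CARS1: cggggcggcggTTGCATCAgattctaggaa
GARS1: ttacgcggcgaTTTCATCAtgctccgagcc
NARS1: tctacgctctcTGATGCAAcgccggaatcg
SLC1A5: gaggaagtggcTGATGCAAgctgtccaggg
SLC3A2: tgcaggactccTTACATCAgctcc
SLC7A1: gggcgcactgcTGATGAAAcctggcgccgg
CEBPG: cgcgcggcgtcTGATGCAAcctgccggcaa
SLC1A4: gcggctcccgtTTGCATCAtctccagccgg
SLC38A1: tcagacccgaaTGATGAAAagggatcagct
ATF3: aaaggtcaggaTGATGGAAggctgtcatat

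The full cyclic AMP response element TGACGTCA, which reads the same on both strands, was found in a window of 1 of the 33 genes, PPP1R15A, and in windows of 2.25% of all genes.

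Over all 38 genes bright enough to be analysed, more were higher with the KSR1 hairpins than lower, by small amounts. Both hairpin arrays lay above both other arrays for 18 genes (47.4%), against 22.5% of all genes analysed, and below both for 2 genes (5.26%), against 18.4% of all genes. For the other 18 the arrays overlapped. The median log2 difference, taken per gene as the hairpin mean minus the mean of the other arrays, was 0.15, and over all genes it was 0.02. After median centring of the arrays the counts were 18 above, against 16.2% of all genes, and 5 below, against 24.9%. No gene of the list kept its arrays apart by 1 log2 unit (2-fold) in either direction, against 0.0241% of all genes above and 0.0321% below.

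None of these genes passed the limma test over all genes. The comparison of both hairpin arrays with both others had 2 residual degrees of freedom and called 0 of 38 list genes and 0% of all 12468 at an adjusted p under 0.05, with smallest adjusted p-values of 0.644 in the list and 0.318 over all genes. At an unadjusted p under 0.05 there were 9 list genes higher, against 4.01% of all genes, and 1 lower, against 3.06%. The spread it rests on is that of one hairpin against the other and of shCTRL against untransfected cells, not that of repeated cultures. Every log2 difference here is on the scale log2(intensity + 16), which understates differences of dim probe sets.

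**Figure D1:**
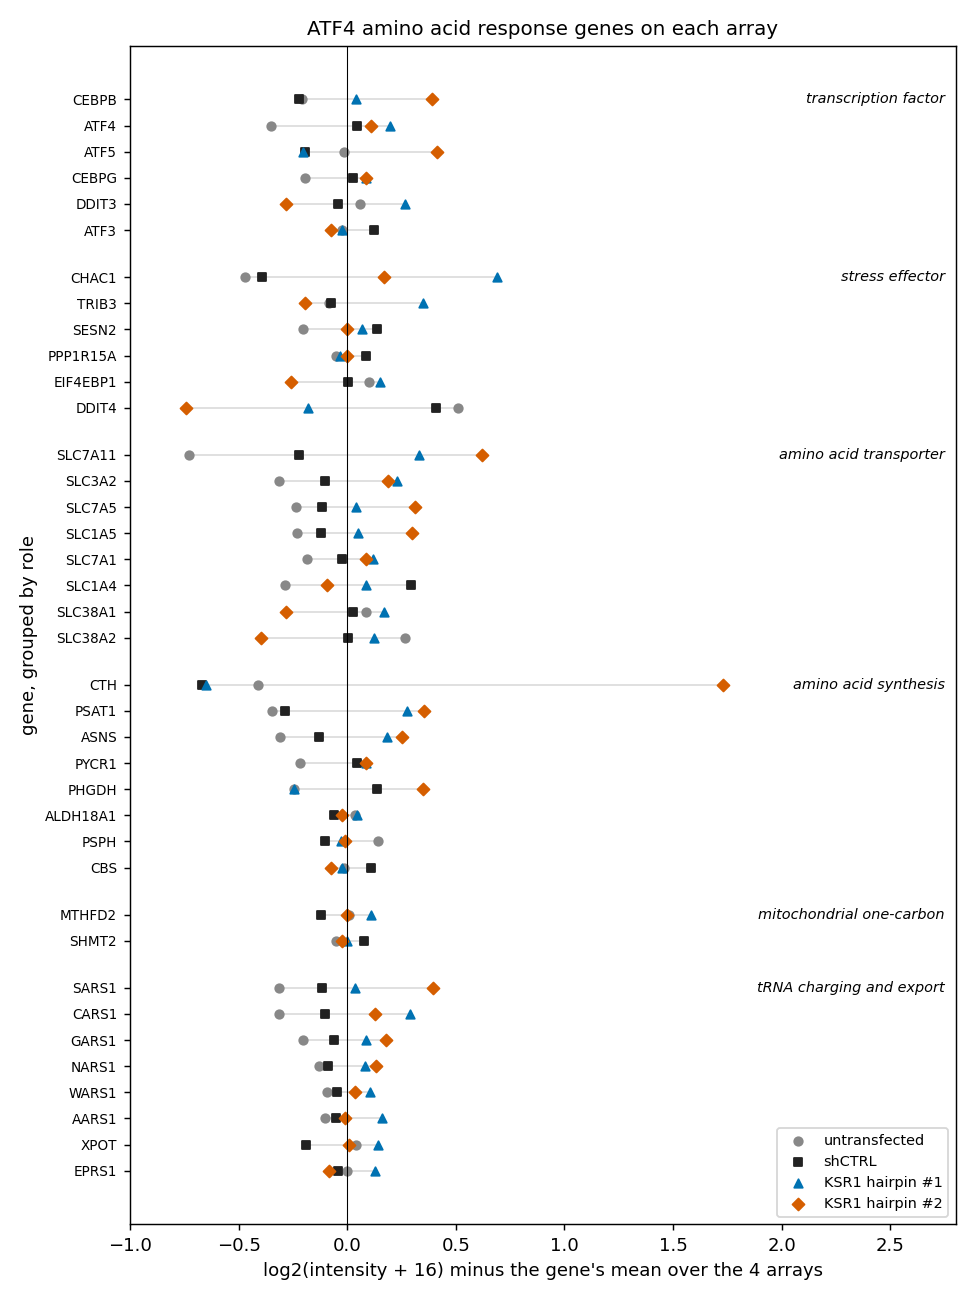
Each row is 1 of the 38 genes analysed, grouped by role, and each symbol is 1 array: the log2(intensity + 16) value minus the mean of that gene over the 4 arrays. In 18 rows both KSR1 hairpin symbols lie to the right of both others, and CTH stands out with hairpin #2 alone.

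The cells carrying shCTRL lay between the untransfected and the hairpin arrays for nearly all genes that separated. Of the 18 genes with both hairpin arrays on top, 17 were lowest in untransfected cells with shCTRL next, CEBPB being the exception. That order held for 44.7% of the 38 genes and 13% of all genes, and for 94.4% and 57.7% of those with both hairpin arrays on top. Untransfected cells had the lowest value for 21 of the 38 genes, against 30.3% of all genes, and shCTRL for 6, against 22.9%. The highest value was that of hairpin #1 for 16 genes, against 23.3% of all genes, of hairpin #2 for 13, against 30.1%, of shCTRL for 6, against 24.2%, and of untransfected cells for 3, against 22.4%. Hairpin #1 had the lowest value for 2 genes, against 21.6%, and hairpin #2 for 9, against 25.1%. Actin probes of the 3' and 5' ends, whose ratio is a measure of RNA quality, also set untransfected cells apart, with a ratio of 2.68 against 2.01 to 2.22 in the hairpin lines, while the GAPDH ratio lay between 1.14 and 1.19. Their part in the result was not tested.

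The single pairs of arrays show where the distance lay. The list median was 0.09 for shCTRL minus untransfected cells, with 25 of 38 genes above 0 against 54% of all genes. Relative to shCTRL it was 0.15 with hairpin #1, with 29 genes above 0 against 50.6%, and 0.09 with hairpin #2, with 25 above 0 against 51.5%. Relative to untransfected cells it was 0.23 with either hairpin, with 31 genes above 0 for hairpin #1 against 53.8% and 25 for hairpin #2 against 54.4%. Between the hairpins it was -0.05 for #2 minus #1, with 15 genes above 0 against 51.3%. These pairs share arrays and are not separate evidence. Over all genes the medians of these 6 pairs lay between 0.00 and 0.03. After median centring the list median was 0.0455 for shCTRL minus untransfected cells, 0.057 for hairpin #2 minus shCTRL and -0.0755 for #2 minus #1.

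The transcription factors of the response were at most 1.35-fold apart between the mean of the hairpin arrays and that of the others. Single arrays lay further apart for some. With both hairpins 3 of the 6 analysed were above both others, against 22.5% of all genes. ATF4 had an intensity of 2698 in untransfected cells, 3564 in shCTRL, 3981 in hairpin #1 cells and 3737 in hairpin #2 cells. Most of that distance lay between untransfected cells and all 3 hairpin lines, shCTRL included, and the log2 difference between hairpin #2 and shCTRL was 0.07. Averaged over the arrays of each side, the ATF4 difference was 0.31 (SE 0.16, limma adjusted p = 0.672). Against shCTRL alone it came to 0.11, and against untransfected cells alone to 0.51. CEBPB, a C/EBP partner of ATF4, was at 1476 in untransfected and 1464 in shCTRL cells, and at 1758 and 2241 with hairpins #1 and #2. The untransfected and shCTRL arrays were thus alike for CEBPB, and the difference was 0.43 (SE 0.15, limma adjusted p = 0.668), or 0.255 without hairpin #2.

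CEBPG, which also dimerises with ATF4, had a difference of 0.17 on its brightest probe set. For that probe set the untransfected array alone made most of it, with 453 there and 528, 554 and 553 on the others. The second CEBPG probe set gave 0.36, again with both KSR1 hairpin arrays on top. Here hairpin #1 also stood apart from shCTRL, at 405 against 313, while hairpin #2 read 338 and the untransfected array 259. ATF5, a related factor itself induced through eIF2 phosphorylation, was at 141 in untransfected cells, 122 in shCTRL, 122 in hairpin #1 cells and 195 in hairpin #2 cells, so that only hairpin #2 lay apart. The 3 ATF5 probe sets above the filter did not share a direction, with differences from -0.30 to 0.21. ATF3, an early stress-induced repressor, had intensities between 317 and 368 with no separation. DDIT3 (CHOP), the factor linked to cell death in prolonged stress, was at 262 in untransfected cells, 244 in shCTRL, 306 in hairpin #1 cells and 205 in hairpin #2 cells. The hairpin arrays were thus the highest and the lowest of the 4 for DDIT3.

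Among the stress effectors CHAC1 and DDIT4 stood apart in opposite directions. CHAC1, which degrades glutathione, was at 90.1 in untransfected and 96.5 in shCTRL cells, and at 221 with hairpin #1 and 149.8 with hairpin #2. Both hairpin arrays were above both others, by 0.86 on average (SE 0.19, limma adjusted p = 0.668), and hairpin #1 lay 1.08 above shCTRL. It was the only list gene at least 2-fold higher in that pair, against 0.112% of all genes, and 0 were 2-fold lower, against 0.433%. DDIT4 (REDD1), an inhibitor of mTORC1, was at 6779 in untransfected cells, 6333 in shCTRL, 4204 in hairpin #1 cells and 2838 in hairpin #2 cells. Both hairpin arrays were below both others, with a difference of -0.92 (SE 0.21, limma adjusted p = 0.668) and hairpin #2 the lowest.

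DDIT4 is also a hypoxia target, and most genes of that group lay on the same side. Whether DDIT4 and that group share a cause was not tested. Of 13 other targets of the hypoxia factor HIF that were analysed, 12 were below both other arrays with both hairpins, against 18.4% of all genes, and the median difference of the 13 was -0.85. The exception was SLC2A1, the glucose carrier GLUT1, at 1081 in untransfected cells, 1506 in shCTRL, 750.2 in hairpin #1 cells and 3313 in hairpin #2 cells, so that the hairpin arrays were its lowest and its highest. On their brightest probe sets the other effectors did not separate the groups. TRIB3, a pseudokinase that dampens ATF4, was at 508 in untransfected and 512 in shCTRL cells, 691 with hairpin #1 and 469 with hairpin #2, so that hairpin #1 alone lay apart. SESN2, a leucine sensor upstream of mTORC1, was lowest in untransfected cells at 213 and lay between 246 and 275 in the other lines. Its second probe set did not share that order. It was at 195 in untransfected cells, 246 in shCTRL, 299 in hairpin #1 cells and 187 in hairpin #2 cells. PPP1R15A (GADD34), which directs the phosphatase that resets eIF2, ranged from 172 to 190.2, and EIF4EBP1, a translation repressor controlled by mTORC1, from 1092 with hairpin #2 to 1454 with hairpin #1.

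**Figure D2:**
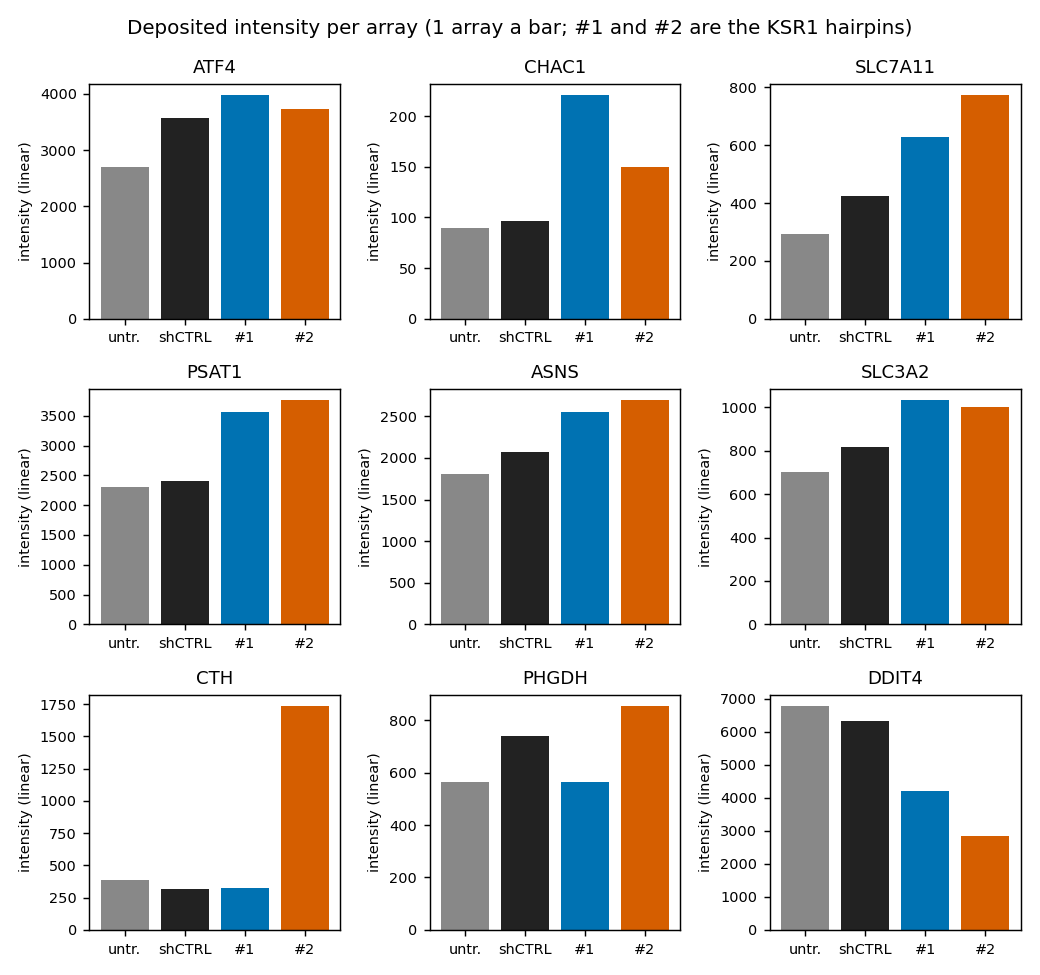
Bars give the deposited linear intensity of 9 genes on each of the 4 arrays (untr., untransfected; #1 and #2, the KSR1 hairpins), with 1 array per bar and each panel on its own scale from 0. CHAC1, SLC7A11, PSAT1, ASNS and SLC3A2 are higher in both hairpin bars, CTH in the hairpin #2 bar alone, and DDIT4 is lower in both.

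Of 8 amino acid transporters, 5 were above both other arrays with both hairpins, against 22.5% of all genes, and 0 below, against 18.4%, their differences having a median of 0.28. SLC7A11, the cystine and glutamate exchanger that supplies cysteine for glutathione, was at 292 in untransfected cells, 424 in shCTRL, 628 in hairpin #1 cells and 774 in hairpin #2 cells. The arrays were ordered without overlap, and shCTRL itself lay 0.51 above untransfected cells. The difference was 0.95 (SE 0.21, limma adjusted p = 0.668). A second SLC7A11 probe set gave 268, 444, 687 and 712 in the same order, and the remaining, dimmer one lay between 49.1 and 55.7 with a difference of 0.00. SLC7A11 was at least 2-fold higher than in untransfected cells with either hairpin. CHAC1 with hairpin #1 and CTH with hairpin #2 were the others, the shares of all genes being 0.249% for hairpin #1 and 1.29% for hairpin #2.

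SLC3A2 is the heavy chain that SLC7A11 and SLC7A5 need to reach the cell surface. It was at 704 in untransfected cells, 817 in shCTRL, 1032 in hairpin #1 cells and 1002 in hairpin #2 cells, a difference of 0.42 (SE 0.11, limma adjusted p = 0.668). The hairpin arrays were close to each other and above both others for SLC3A2. SLC7A5, the light chain of the large neutral amino acid exchanger, went from 1931 and 2103 without a KSR1 hairpin to 2353 and 2846 with hairpins #1 and #2, and the glutamine carrier SLC1A5 from 817 and 881 to 997 and 1188. For both, hairpin #2 was the highest array. SLC7A1, the arginine and lysine carrier, had a difference of 0.20, and its dimmest probe set above the filter had -0.16.

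The remaining transporters did not separate the groups. SLC1A4, a carrier of alanine, serine and cysteine, was at 82.1 in untransfected cells, 131 in shCTRL, 111 in hairpin #1 cells and 96 in hairpin #2 cells. It had the largest gap of the list between shCTRL and untransfected cells, 0.59, with both hairpin arrays in between. SLC38A2, a sodium-coupled carrier of small neutral amino acids such as glutamine, was at 11273 in untransfected cells, 9401 in shCTRL, 10239 in hairpin #1 cells and 7091 in hairpin #2 cells, and SLC38A1, a related glutamine carrier, at 2885, 2754, 3045 and 2228. Both were lowest with hairpin #2 and overlapped otherwise. Without hairpin #2 the SLC38A2 difference went from -0.27 to -0.00782. The 3 SLC38A2 probe sets gave differences between -0.35 and -0.27, while those of SLC38A1 ran from -0.11 to 0.27.

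Amino acid synthesis genes were mixed, with 3 of 8 above both other arrays, against 22.5% of all genes, 1 below, against 18.4%, and a median difference of 0.14. PSAT1, the aminotransferase of serine synthesis, was at 2297 in untransfected and 2408 in shCTRL cells, and at 3558 and 3759.5 with hairpins #1 and #2. Arrays of each kind were close together, and the difference of 0.63 (SE 0.10) had the smallest limma adjusted p of the list, 0.644. The second PSAT1 probe set gave a difference of 0.64. On their brightest probe sets the enzymes on either side of PSAT1 in the pathway did not separate the groups. PHGDH, which starts serine synthesis, was at 566 in untransfected cells, 739 in shCTRL, 565 in hairpin #1 cells and 855 in hairpin #2 cells, so that hairpin #1 matched untransfected cells. PSPH, which ends it, was highest in untransfected cells, at 737, and lay between 622 and 665 on the others. Its second probe set had both hairpin arrays above both others, at 585 in untransfected cells, 516 in shCTRL, 729 in hairpin #1 cells and 603 in hairpin #2 cells.

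ASNS, asparagine synthetase, was at 1811 in untransfected cells, 2066 in shCTRL, 2552 in hairpin #1 cells and 2692 in hairpin #2 cells. The groups did not overlap, and the difference was 0.44 (SE 0.11, limma adjusted p = 0.668), or 0.21 with its probe sets averaged. That average takes in a second probe set below the filter, with intensities between 11.3 and 12.5. PYCR1, which makes proline, was at 1129 in untransfected cells and between 1354 and 1397 on the others, where all 3 hairpin lines were alike. It was counted as above both others with both KSR1 hairpins, but by only 0.04 at the nearest arrays. ALDH18A1, the first enzyme of proline synthesis, had intensities between 1557 and 1685.

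CTH gave the largest single difference of the list, and with hairpin #2 alone. CTH, cystathionine gamma-lyase, releases cysteine at the end of transsulfuration. It was at 384 in untransfected cells, 318 in shCTRL, 322 in hairpin #1 cells and 1737 in hairpin #2 cells. The second CTH probe set, at 90.5, 93.5, 111 and 538, gave the same picture. Hairpin #2 lay 2.39 log2 units above shCTRL and 2.37 above hairpin #1, and 18 of 12468 genes, CTH included, differed upward between the hairpins by as much. It was the only list gene at least 2-fold higher with hairpin #2 than with hairpin #1, against 1.07% of all genes, or than in shCTRL, against 0.979%. The averaged difference of 1.08 (SE 0.79, limma adjusted p = 0.719) therefore stands for 1 array. CBS, which precedes CTH in the pathway, was dim, between 69.1 and 80.4, and below both others with both hairpins by 0.01 at the nearest arrays.

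DDIT4 was the only list gene at least 2-fold lower in any pair of arrays, with hairpin #2 against shCTRL (0.922% of all genes) and against untransfected cells (0.987%). Between shCTRL and untransfected cells 0 of the 38 genes were 2-fold apart, the shares of all genes being 0.481% higher and 0.369% lower. With hairpin #1 against untransfected cells 0 were 2-fold lower (0.505%), and with hairpin #2 against hairpin #1 likewise 0 (0.642%).

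On their brightest probe sets the mitochondrial one-carbon enzymes, which take carbon from serine, did not separate the arrays. MTHFD2, a folate dehydrogenase, was at 7476 in untransfected cells, 6836 in shCTRL, 8034 in hairpin #1 cells and 7402 in hairpin #2 cells. SHMT2, the mitochondrial serine hydroxymethyltransferase, lay between 2868 and 3127, and its 3 probe sets had differences from -0.03 to 0.15. For both genes the brightest probe set had a smaller range over the 4 arrays than that of PSAT1. On it shCTRL was at one end, lowest for MTHFD2 and highest for SHMT2.

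In the transfer RNA group all 8 genes analysed had differences above 0, against 54.1% of all genes. For 6 of the 8 (75%) both hairpin arrays were above both others, against 22.5% of all genes, and the median difference was 0.18. CARS1, the cysteine synthetase, was at 1988 in untransfected cells, 2312 in shCTRL, 3029.7 in hairpin #1 cells and 2699 in hairpin #2 cells. Its 3 probe sets above the filter gave differences between 0.40 and 0.46, and the brightest had an SE of 0.13 (limma adjusted p = 0.668). SARS1, for serine, was at 1319.5, 1510.2, 1679 and 2170.4 in the same order, with hairpin #2 the highest.

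The other synthetases differed less. GARS1, for glycine, was at 2924 in untransfected cells and 3808 with hairpin #2, and NARS1, for asparagine, at 4583 and 5501, differences of 0.26 and 0.21 over both hairpins. WARS1 (tryptophan) and AARS1 (alanine) had differences of 0.15 each, with hairpin #1 the highest array for both. That of WARS1 is from its brightest probe set, and its dimmer one gave 0.29, again with both hairpin arrays above both others. On the brightest probe sets 1 exception was EPRS1, for glutamate and proline, at 1955 with hairpin #2, the lowest of its 4 values. The other was the transfer RNA exporter XPOT, at 2129 in untransfected cells and 2085 with hairpin #2. Both dimmer EPRS1 probe sets had both hairpin arrays above both others, with differences of 0.26 and 0.33.

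Synthetases outside the list give a scale for these counts. Of 11 other cytosolic synthetase genes and their scaffold proteins analysed, 4 (36.4%) were above both other arrays, against 22.5% of all genes, and 0 below, against 18.4%, with a median difference of 0.07. The largest belonged to YARS1, for tyrosine, at 1944 in untransfected and 1922 in shCTRL cells against 2900.5 and 2455 with hairpins #1 and #2. Of 15 mitochondrial synthetases, 6 (40%) were above and 1 below, with a median of 0.09. The difference between the list and these groups was not tested.

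**Figure D3:**
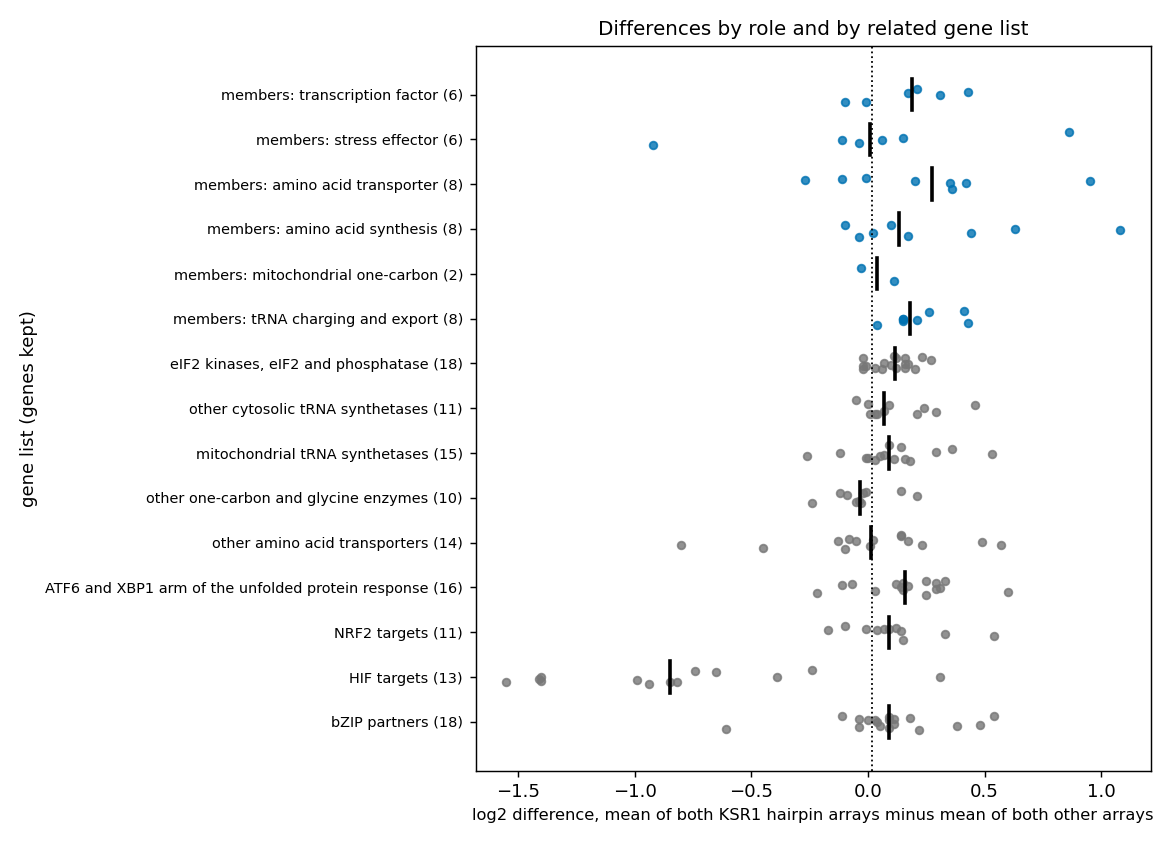
Each point is 1 gene, placed by its log2 difference, the KSR1 hairpin mean minus the mean of the other arrays, with a black bar at the median of each list and a dotted line at the median of all genes. The transporters and transfer RNA genes among the ATF4 genes have medians of 0.28 and 0.18, and HIF targets lie at -0.85.

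Genes upstream and beside the response were read in the same way. Of 18 genes of eIF2, its kinases, exchange factor and regulators, 6 (33.3%) were above both other arrays, against 22.5% of all genes, and 0 below, against 18.4%, with a median of 0.11. The largest differences belonged to EIF2S2, a subunit of eIF2, with 0.27, and OMA1, with 0.23. EIF2AK4 (GCN2), the kinase that senses uncharged transfer RNA, was at 882 in untransfected cells, 791 in shCTRL, 1039 in hairpin #1 cells and 894 in hairpin #2 cells. Its nearest arrays were 0.02 apart. The other kinases, EIF2AK1, EIF2AK2 and EIF2AK3, overlapped, with differences of 0.07, 0.11 and -0.01. In the ATF6 and XBP1 arm of the unfolded protein response, 10 of 16 were above and 1 below, with a median of 0.16, so this arm had a share above both, 62.5%, higher than the 47.4% of the ATF4 genes. XBP1 led it, with a difference of 0.60 (SE 0.18, limma adjusted p = 0.668).

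Genes with related tasks that were not listed as ATF4 targets were read against the shares of all genes, 22.5% above both other arrays and 18.4% below. Of 14 other amino acid transporters analysed, 3 (21.4%) were above and 1 below, with a median of 0.01. Among those above were SLC43A2, a carrier of large neutral amino acids, with a difference of 0.57, and SLC36A1, a proton-coupled carrier of small amino acids, with 0.49. The 1 below was SLC1A1, a glutamate carrier, at 455 in untransfected cells, 545 in shCTRL, 274 in hairpin #1 cells and 286 in hairpin #2 cells. Of 10 other one-carbon and glycine enzymes, 1 (10%) was above and 1 below, with a median of -0.04. SLC7A11 is also a target of the antioxidant factor NRF2, and of 11 NRF2 targets outside the list 3 (27.3%) were above and 0 below, with a median of 0.09. NQO1 had the largest difference there, 0.54 (SE 0.15). Of 18 other genes of bZIP factors or with C/EBP names, 5 (27.8%) were above and 0 below, with a median of 0.09.

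Several of these groups had other medians against each control array alone. Relative to shCTRL alone, the NRF2 targets had medians of 0.24 with hairpin #1 and 0.30 with hairpin #2, larger than the 0.15 and 0.09 of the ATF4 genes. Relative to untransfected cells their medians were -0.01 and 0.04, and shCTRL itself lay at -0.25. The eIF2 genes were at 0.16 and 0.17 relative to shCTRL and at -0.12 for shCTRL minus untransfected cells. The genes of bZIP factors or with C/EBP names were at 0.13 relative to shCTRL with either hairpin, and the other cytosolic synthetases at 0.16 and 0.14. The medians of all genes relative to shCTRL were 0.00 and 0.01. These pairs have 1 array a side and no test.

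The promoter matches were set beside the separation of the arrays. Among list genes with a window, the CARE core lay in 10 of the 16 with both hairpin arrays above both others (62.5%). It lay in 3 of the 15 whose arrays overlapped (20%) and in 0 of the 2 below both. The share was 39.4% of all 33 list genes with a window and 4.46% of all genes with a window. SLC7A11 and PYCR1 were also above both but had no window. The list was named as ATF4 targets, so these shares describe it. CARE-holding genes on top included CHAC1, ASNS, CARS1, SLC3A2 and SLC1A5, whose elements are printed above, while ATF3, SLC1A4 and SLC38A1 held it and overlapped. Neither ATF4 binding nor the activity of these elements was measured, and the difference between the shares was not tested.

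**Figure D4:**
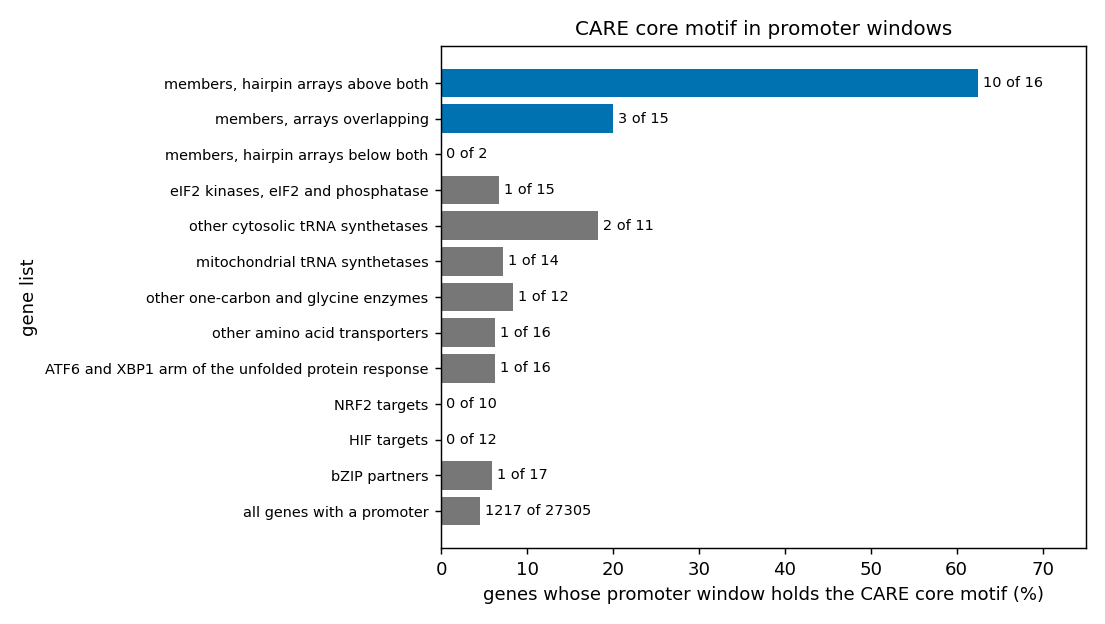
Bars give the share of genes, in percent, whose RefSeq promoter window holds the CARE core on either strand, with the number of genes beside each bar. The 16 ATF4 response genes with both KSR1 hairpin arrays on top have 62.5%, the 15 with overlapping arrays 20% and the 2 below both 0%. All genes with a window have 4.46%, and the 33 list genes, chosen as ATF4 targets, 39.4%.

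Probe sets of the same gene were compared, since a gene was read from its brightest one. Of the 69 list probe sets above the filter, 31 (44.9%) were above both other arrays with both hairpins, against 23.7% of all such probe sets, and 4 (5.8%) were below, against 16.9%. Of 22 genes with at least 2 probe sets above the filter, 11 had all differences above 0, 3 had all below 0 and 8 did not have 1 direction. CTH, PSAT1, CARS1 and SARS1 were among those with 1 direction. The widest disagreement was that of SLC7A11, through its dimmest one, followed by ATF5. For EPRS1, MTHFD2 and PSPH dimmer probe sets reached differences of 0.33, 0.44 and 0.26, above the 0.04, 0.11 and -0.04 of the brightest.

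**Figure D5:**
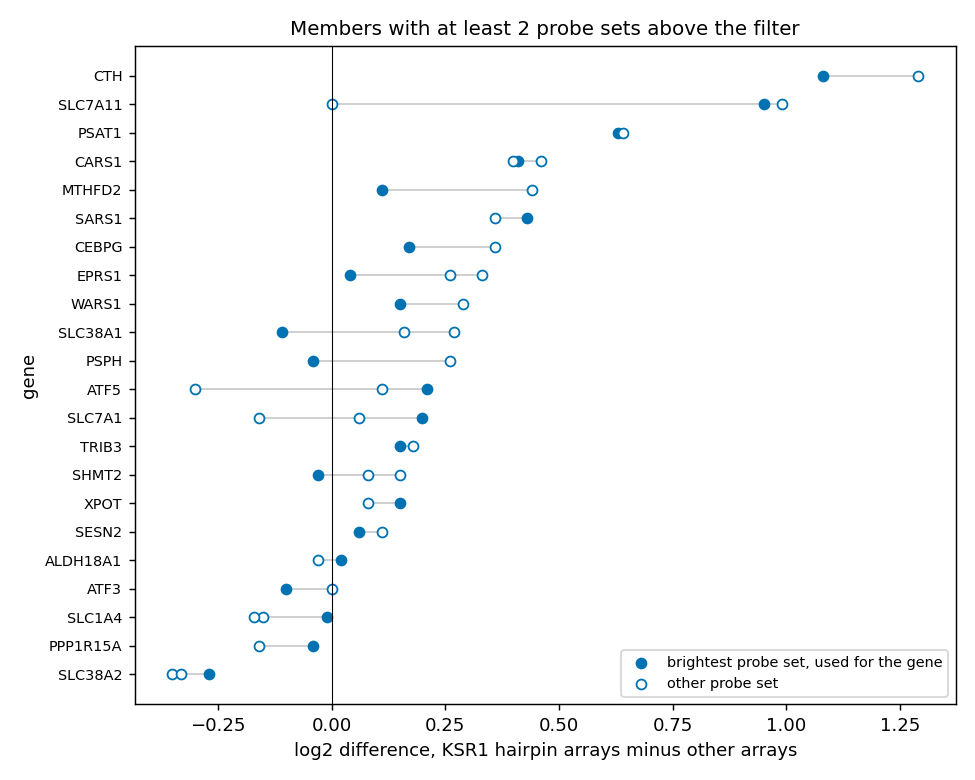
Each row is 1 of the 22 genes with at least 2 probe sets above the filter, and each circle is 1 probe set, placed by its log2 difference between KSR1 hairpin and other arrays (filled, the brightest, which represents the gene). PSAT1 and CARS1 circles nearly coincide, while those of SLC7A11 span 0.99 log2 units.

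The targeted gene and the identity of the cells set the frame for these values. KSR1 was at 209 in untransfected cells, 211 in shCTRL, 141 in hairpin #1 cells and 171 in hairpin #2 cells on its brightest probe set, a difference of -0.40 (SE 0.12, limma adjusted p = 0.668). All 8 epithelial markers checked were above the filter, although VIL1, CDX1 and CDX2 were dim, at 159 or less. Of fibroblast markers 3 of 8 passed it, COL1A1 highest at 372 to 433, and of leukocyte markers 0 of 6, none above 53.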

How the data were processed

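Per the labels, biotinylated cRNA was made from 2.5 micrograms of total RNA with the Affymetrix 1-cycle kit. The deposited values were linear intensity values, 1 per probe set and array, with array medians between 50.7 and 52.0; how the authors corrected background, summarised probes and normalized arrays is not stated in the sources used here. They were taken without further scaling as log2(intensity + 16).

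Of 54675 probe sets, 41097 had 1 gene symbol in the platform annotation, 1801 several and 11777 none, and 41043 were matched to RefSeq (GRCh38.p14) by gene identifier, with 0 symbols updated. A gene took its brightest probe set and was analysed where its mean was at least 6.08, the median over probe sets. No detection calls were used, and no sequencing depth applies to arrays, whose number limits the precision.

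Both hairpin arrays were compared with both others with limma 3.58.1 (R 4.3.3; lmFit, eBayes, Benjamini-Hochberg over all genes), checked on simulated data. Single pairs have no test and a size rule of 1 log2 unit. Full values are given for ATF4, the 6 highest and 4 lowest differences, the 3 largest between shCTRL and untransfected cells, the 4 largest between hairpins and any gene 1 log2 unit apart in a pair, and others were named as roles required. The genes and lists were chosen with earlier results of these data known. Alternatives covered pseudocount, filter, probe set choice, scaling and leaving out each array.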

Additional observations from a re-analysis of the deposited data

Results flagged for a closer look

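The hairpins differed from shCTRL in opposite directions, each by at least 0.2 log2 units, for 2 of the 38 genes (5.26%), against 2.33% of all genes; the limit of 0.2 was chosen after seeing the data, and the difference between the hairpins was not tested. DDIT3 was at 0.31 with hairpin #1 and at -0.24 with hairpin #2. PHGDH was at -0.38 with hairpin #1 and at 0.21 with hairpin #2.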

How the results depend on the processing

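With 12 alternatives, limma called 0 genes in each, and 882 of 12468 genes had an unadjusted p under 0.05 in the comparison reported. The count of list genes above both other arrays stayed between 17 and 20 with all 4 arrays, while the share of all genes above both went from 16.2% after median centring to 27.2% with the filter at the 75th percentile. That count lay between 21 and 26 with 1 array left out, where fewer arrays have to agree and 35.8% to 39.8% of all genes meet the rule. The count below both, 2, was 1 with the filter at the 75th percentile (13.7% of all genes) or with probe sets averaged (16.5%), 4 after quantile normalization (22.3%), 5 after median centring (24.9%), and between 4 and 9 with 1 array left out (31.2% to 33.5%), 9 without hairpin #1, 7 without untransfected cells and 4 without shCTRL or hairpin #2. The list median of 0.153 ranged from 0.123 to 0.235 with 1 array left out, highest without shCTRL. The shCTRL minus untransfected median of 0.0948 was 0.0455 after median centring, the hairpin #2 minus shCTRL median of 0.0895 was 0.0589 after quantile normalization and 0.057 after median centring, and the #2 minus #1 median of -0.0451 was -0.0802 with probe sets averaged, -0.0755 after median centring and -0.073 without _x_at and _s_at probe sets. With 1 array left out, and no change of sign, ATF4 ranged from 0.113 to 0.513, CEBPB from 0.255 to 0.603 and SLC38A2 from -0.537 without hairpin #1 to -0.00782 without hairpin #2. With probe sets averaged, those below the filter included, ASNS was at 0.214 and ATF5 at 0.113. PHGDH, at 0.102, was at 0.056 after quantile normalization and 0.0598 after median centring. Log2 differences that changed sign with 1 array left out ranged from -0.111 to 2.26 for CTH, -0.309 to 0.0983 for EIF4EBP1, -0.337 to 0.111 for SLC38A1, -0.0943 to 0.523 for ATF5, -0.304 to 0.284 for SLC1A4 and -0.190 to 0.394 for PHGDH. All 6 turned without hairpin #2 (SLC1A4 to 0.0836), PHGDH also without untransfected cells (-0.0863), SLC1A4 also without shCTRL, and SLC38A1 also with probe sets averaged (0.0763); the cause was not tested. No paired analysis was possible because each group has 1 array and the labels number none.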
